A study of Mus musculus with 12 samples.

Results

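The genes described here are 10 targets of Wnt and β-catenin signaling that mark hepatocytes around the central vein. They are *Axin2*, *Lgr5*, *Rnf43*, *Znrf3*, *Tbx3*, *Glul*, *Slc1a2*, *Oat*, *Rhbg* and *Lect2*. They were taken by their GENCODE M21 symbols from the 54232 gene IDs of the deposited count table. All 10 were found, and all 10 passed the filter on low counts together with the rest of the 14168 genes tested. They were taken by name, from a list drawn up with earlier results of these data known.

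RNA was sequenced from whole livers of male C57BL6/J mice, with 1 library per mouse, in a model of alcohol-associated steatohepatitis (ASH). The 5 pair-fed (PF) mice received an isocaloric high-fat liquid diet into the stomach. The 7 alcohol-fed (AF) mice received the diet with ethanol, raised to 27 g/kg/day, and a weekly ethanol binge of 5 g/kg. In the study's methods the regimen also included a solid Western diet eaten freely, and the labels give only the liquid diet for either group. Mice were killed the day after the last binge. The labels give an age of 8 weeks and a treatment of 8 weeks for both groups. The model covers males only, and its controls were themselves on a high-fat diet. Whether the labelled age is that at the start or the end is not stated.

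Depth was 24129900 to 28594027 counted reads in PF libraries (median 26288205) and 25099033 to 30578639 in AF libraries (median 28305290). Levels below are CPM, read counts brought to a common library size, after TMM scaling, a factor that evens out differences in library composition. These factors were 0.832 to 0.901 for PF libraries and 0.880 to 1.36 for AF libraries. Marker genes of hepatocytes summed to 149000 to 203000 CPM in PF and 89000 to 166000 CPM in AF. In whole liver, fewer cells of a type and less RNA per cell cannot be told apart.

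In the liver lobule, endothelial cells of the central vein secrete Wnt ligands and R-spondin 3. These stabilize β-catenin in the nearest hepatocytes, where it acts with TCF/LEF factors on target genes. Part of the targets feed back on the pathway, and others give pericentral hepatocytes their metabolism. The best known is glutamine synthetase, which captures the ammonia that has passed the urea cycle enzymes of upstream hepatocytes.

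To show the DNA at the start of the genes whose levels were highest in PF livers, promoter windows are printed from RefSeq (GRCm38.p6). Each window holds the 250 bases before the annotated start, 5′ to 3′ on the strand of the gene. Of the 10 genes, 6 matched the promoter table, with 7 windows. Capitals mark a match to a TCF/LEF heptamer, on either strand. The heptamers searched were CTTTGAA and CTTTGAT, and likewise CTTTGTA and CTTTGTT, and matches on opposite strands may share letters.
*Glul*, chr1:153899679-153899928, + strand: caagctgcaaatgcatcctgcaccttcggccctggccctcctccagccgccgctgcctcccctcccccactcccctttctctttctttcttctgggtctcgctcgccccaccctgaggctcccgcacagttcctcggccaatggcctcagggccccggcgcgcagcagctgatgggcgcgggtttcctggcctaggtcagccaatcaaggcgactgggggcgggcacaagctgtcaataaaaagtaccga
*Oat*, chr7:132576399-132576648, - strand: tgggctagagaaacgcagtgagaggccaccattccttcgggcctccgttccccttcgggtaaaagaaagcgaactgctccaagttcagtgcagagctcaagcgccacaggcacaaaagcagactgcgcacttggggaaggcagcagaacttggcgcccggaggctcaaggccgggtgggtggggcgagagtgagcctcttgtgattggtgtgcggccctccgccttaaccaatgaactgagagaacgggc
*Slc1a2*, chr2:102706188-102706437, + strand: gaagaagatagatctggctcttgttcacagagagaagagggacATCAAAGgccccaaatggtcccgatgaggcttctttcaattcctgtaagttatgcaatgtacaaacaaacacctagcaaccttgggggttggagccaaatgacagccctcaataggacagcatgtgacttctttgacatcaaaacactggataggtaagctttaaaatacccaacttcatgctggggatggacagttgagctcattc
*Lect2*, chr13:56548539-56548788, - strand: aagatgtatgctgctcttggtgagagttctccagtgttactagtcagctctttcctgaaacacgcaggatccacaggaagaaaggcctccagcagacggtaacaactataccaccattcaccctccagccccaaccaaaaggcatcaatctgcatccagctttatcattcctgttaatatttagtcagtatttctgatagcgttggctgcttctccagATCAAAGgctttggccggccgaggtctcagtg

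Of the 7 windows, 2 held a match, and in both it read ATCAAAG, the reverse complement of CTTTGAT. In *Lect2* its first base lay 32 bases before the RefSeq start, and in *Slc1a2* 207 bases before it. The *Slc1a2* window belongs to an alternative start inside the gene as GENCODE draws it. Among all 32851 promoter windows of this length, 14.8% held at least 1 of the heptamers. The *Glul* and *Oat* windows, which are 64.8% and 60.0% G or C, held none, as did those of *Axin2* and *Rnf43*. A match is a description of letters only, and these windows do not reach the distant enhancers of the genes.

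AF livers held less mRNA of part of the set. In them, 5 of the 10 genes were lower than in PF livers and 0 were higher at an adjusted p under 0.05. Among all genes tested, 17.8% were lower and 22.0% higher by the same rule (39.8% in either direction). *Lgr5* and *Glul* fell most, by 2.06 and 1.77 on the log2 scale, and *Lect2*, *Rnf43* and *Znrf3* fell by less. *Oat* and *Slc1a2* varied widely between AF livers and did not pass. *Axin2*, *Tbx3* and *Rhbg* did not pass either. The median log2 fold change of the 10 genes was -0.70, against 0.04 for all genes tested.

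**Figure D1:**
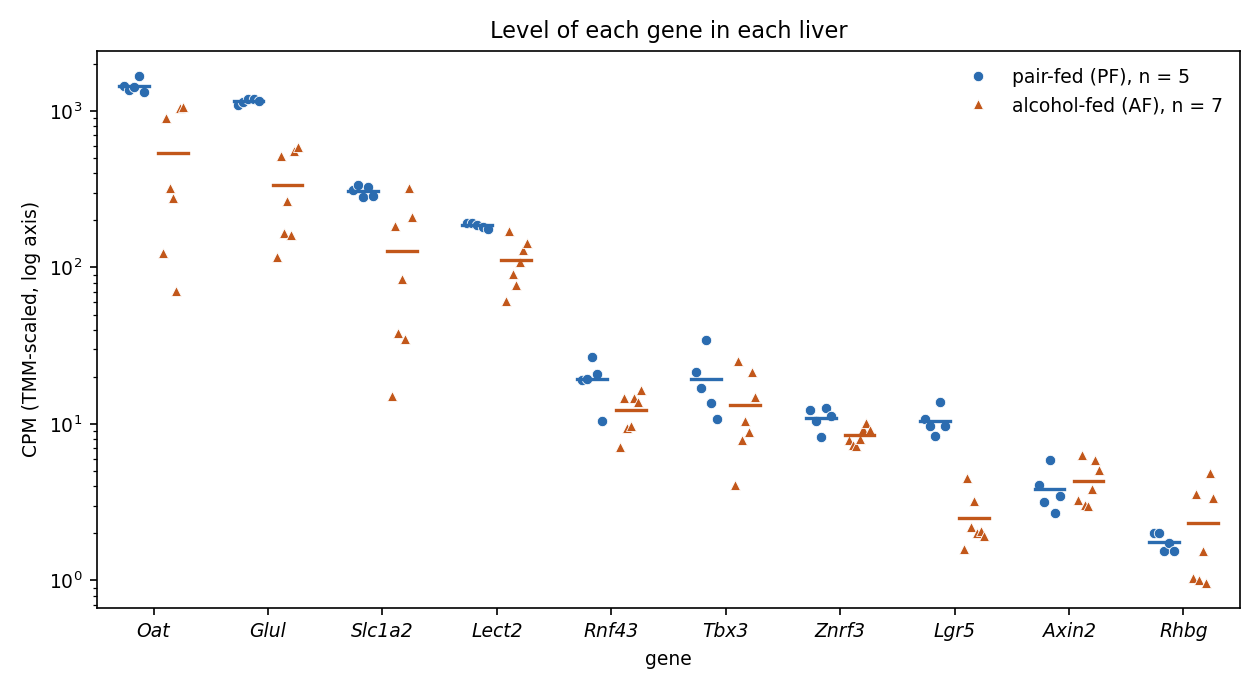
Level of each gene in each liver, as TMM-scaled CPM on a log axis, with PF livers as circles, AF livers as triangles and group means as bars (PF n = 5, AF n = 7). PF livers lie close together for *Oat*, *Glul*, *Slc1a2* and *Lect2*, while AF livers of *Slc1a2* run from 15 to 320 CPM.

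Per kilobase of exon, the genes spanned a wide range of PF levels. *Oat* (613 ± 56.2 CPM per kb, SD, n = 5), *Glul* (347 ± 12.7) and *Lect2* (202 ± 8.46) led, with ranges that did not overlap, followed by *Slc1a2* (23.5 ± 1.89). *Rnf43* (2.95 ± 0.899) and *Tbx3* (2.93 ± 1.40) came next with overlapping ranges (1.59 to 4.11 and 1.61 to 5.18). *Znrf3* (1.39 ± 0.225), *Lgr5* (1.02 ± 0.196), *Rhbg* (0.913 ± 0.123) and *Axin2* (0.701 ± 0.226) were lowest, and in this order each overlapped with its neighbor. In AF livers *Lect2* averaged 121 and *Glul* 102 CPM per kb, with ranges of 66.4 to 187 and 35.2 to 176 that overlapped.

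The first group of genes acts on the pathway itself. *Lgr5* (ENSMUSG00000020140, chr10:115450311-115587780, - strand) encodes a receptor for R-spondins. It measured 10.8, 9.65, 8.33, 13.7 and 9.73 CPM in PF livers 1 to 5. In AF livers 1 to 7 it measured 1.58, 4.54, 2.19, 3.22, 2.00, 2.08 and 1.93 CPM. All 7 AF values lay under the lowest PF value. The fold change was 4.17-fold lower (log2 -2.06, SE 0.241, edgeR adjusted p = 6.36e-05), and the exact two-sided permutation p was 0.00126, the smallest that 792 splits can give.

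*Rnf43* (ENSMUSG00000034177, chr11:87662722-87735539, + strand) and *Znrf3* (ENSMUSG00000041961, chr11:5276324-5444847, - strand) encode ubiquitin ligases that remove Frizzled receptors from the cell surface. R-spondins bound to LGR receptors block them. *Rnf43* measured 19.2, 19.4, 26.9, 20.7 and 10.4 CPM in PF and 7.15, 14.6, 9.36, 9.67, 14.6, 13.7 and 16.5 CPM in AF livers. The groups overlapped because PF 5 was low, and 3 of 7 AF livers lay under it (log2 -0.66, SE 0.234, edgeR adjusted p = 0.0381, exact permutation p = 0.0442). *Znrf3* measured 12.3, 10.4, 8.21, 12.7 and 11.3 CPM in PF and 7.85, 7.31, 7.26, 7.98, 9.27, 10.2 and 9.14 CPM in AF livers. It fell 1.30-fold (log2 -0.38, SE 0.128, edgeR adjusted p = 0.0304, exact permutation p = 0.0189), and 4 of 7 AF livers lay under all PF livers.

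These calls were near the threshold. *Rnf43* did not pass in edgeR without PF 1, 2, 3 or 4 or without AF 1, 3 or 4 (adjusted p 0.0603 to 0.113), and *Znrf3* did not pass without PF 1, 4 or 5 or without AF 1, 3 or 4 (0.0554 to 0.0811). The direction was lower in each of these fits. *Rnf43* also missed the threshold with upper-quartile factors (adjusted p = 0.0515), and *Znrf3* when every gene with a count was tested (0.0633).

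*Axin2* (ENSMUSG00000000142, chr11:108920349-108950783, + strand) encodes a scaffold of the β-catenin destruction complex and is a common readout of the pathway. It measured 4.04, 3.16, 5.92, 2.71 and 3.48 CPM in PF and 3.24, 6.35, 3.04, 3.00, 3.82, 5.85 and 5.06 CPM in AF livers. The groups overlapped over nearly their whole range, and the difference was within the spread between livers (log2 0.16, SE 0.251, edgeR adjusted p = 0.62, exact permutation p = 0.553). *Axin2* was counted with 69 to 165 reads per library, and its SD of log2 CPM was 0.421 in PF and 0.452 in AF livers.

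*Tbx3* (ENSMUSG00000018604, chr5:119670669-119684724, + strand) encodes a T-box transcription factor. It measured 21.5, 16.9, 34.3, 13.5 and 10.7 CPM in PF and 4.07, 25.1, 7.90, 10.4, 8.90, 21.6 and 14.8 CPM in AF livers. PF livers themselves differed 3.22-fold and AF livers 6.16-fold, and 4 of 7 AF livers lay under all PF livers (log2 -0.56, SE 0.403, edgeR adjusted p = 0.285, exact permutation p = 0.199). The antisense gene *Tbx3os1* overlaps its exons on the other strand and held 797 reads over the 12 libraries, and the strand setting of the counting is not given in the sources used here.

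The second group handles glutamate, glutamine and ammonia. *Glul* (ENSMUSG00000026473, chr1:153899944-153909723, + strand) encodes glutamine synthetase, and its promoter is printed above. In PF livers it was the most even of the 10 genes (SD of log2 CPM 0.0534), at 1090, 1140, 1190, 1190 and 1160 CPM. In AF livers it measured 117, 515, 167, 265, 161, 557 and 586 CPM. Every AF liver was at or below 50.8% of the PF mean, and the lowest was at 10.1%. The mean of 1150 ± 42.1 CPM (SD, n = 5) fell 3.41-fold to 338 ± 206 CPM (SD, n = 7), with a log2 fold change of -1.77, SE 0.379, edgeR adjusted p = 0.00315 and exact permutation p = 0.00505.

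*Oat* (ENSMUSG00000030934, chr7:132557478-132576398, - strand), ornithine aminotransferase, turns ornithine into a precursor of glutamate. It measured 1440, 1360, 1430, 1670 and 1330 CPM in PF and 123, 901, 320, 277, 70.8, 1040 and 1060 CPM in AF livers. All 7 AF livers lay under all PF livers, but they differed 15-fold among themselves. The fold change of -1.42 (SE 0.559) did not pass edgeR's test (adjusted p = 0.0582, unadjusted p = 0.0244). The exact permutation test on log2 CPM, whose p is not adjusted over genes, gave p = 0.0114. Left out 1 at a time, AF 2, AF 6 and AF 7 each brought it under the threshold in edgeR (log2 -1.61 to -1.67, adjusted p 0.0488, 0.0320 and 0.0357). limma-voom with sample quality weights gave *Oat* -1.99 with an adjusted p of 0.00305.

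*Slc1a2* (ENSMUSG00000005089, chr2:102658659-102790784, + strand) encodes a glutamate transporter of the plasma membrane. It measured 311, 338, 282, 327 and 284 CPM in PF and 15, 184, 37.9, 84.0, 34.8, 320 and 209 CPM in AF livers. AF 6 lay within the PF range and the other 6 AF livers lay under it. The 7 AF livers differed 21.4-fold, the widest spread of the 10 genes. edgeR gave log2 -1.29 (SE 0.585, adjusted p = 0.0939, unadjusted p = 0.0455) and the exact permutation test an unadjusted p = 0.0189. Without AF 6 the edgeR value was -1.71 with an adjusted p of 0.0231, and voom with sample weights gave -2.01 (adjusted p = 0.00410).

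*Rhbg* (ENSMUSG00000104445, chr3:88242874-88254709, - strand) encodes an ammonia transporter. It measured 2.02, 2.01, 1.54, 1.73 and 1.54 CPM in PF and 1.04, 3.54, 1.00, 1.53, 0.969, 4.88 and 3.38 CPM in AF livers. AF livers lay on both sides of the PF range, with 4 under it and 3 above it (log2 0.39, SE 0.423, edgeR adjusted p = 0.48, exact permutation p = 0.779). It is a thinly counted gene, with 33 to 131 reads per library. The gene *Gm38392* overlaps its exons on the same strand and held 15 reads over the 12 libraries, at most 4 in 1 library. These counts do not show how reads falling in both genes were assigned.

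*Lect2* (ENSMUSG00000021539, chr13:56542464-56548502, - strand) encodes a secreted protein of hepatocytes. It measured 193, 193, 186, 181 and 176 CPM in PF and 61.0, 171, 90.5, 76.9, 108, 130 and 144 CPM in AF livers. All AF livers were under all PF livers, AF 2 only narrowly (log2 -0.74, SE 0.211, edgeR adjusted p = 0.0148, exact permutation p = 0.00758).

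Without overlap between the groups were 4 of the 10 genes (*Lgr5*, *Glul*, *Oat* and *Lect2*), all lower in AF. Of all genes tested, 9.49% lay without overlap below PF and 8.20% above it, 17.7% in all.

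**Figure D2:**
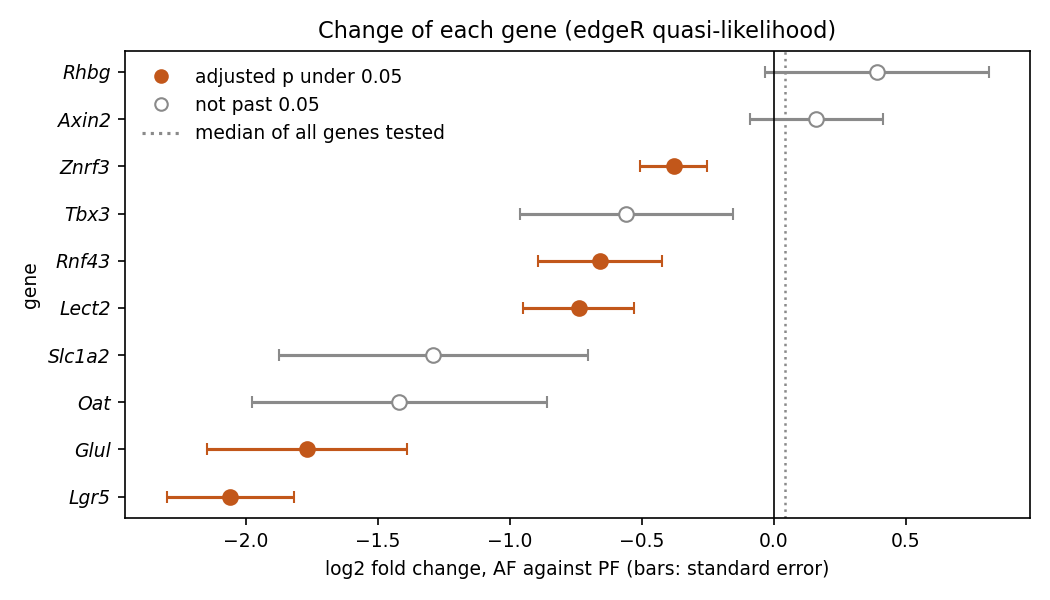
Log2 fold change of AF against PF for each of the 10 genes from edgeR, with standard errors as bars, filled points for an adjusted p under 0.05 and a dotted line at the median of all genes tested (0.04). *Lgr5*, *Glul*, *Lect2*, *Rnf43* and *Znrf3* are filled and lie below 0.

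The spread between AF livers was a second feature of these genes. The SD of log2 CPM was at least 2-fold larger in AF than in PF for 5 of the 10 (*Glul* 18.2-fold, *Slc1a2* 13.9-fold, *Oat* 12.3-fold, *Lect2* 8.67-fold and *Rhbg* 5.16-fold), as it was for 26.9% of all genes tested. The median ratio of SDs was 3.54 for the 10 genes and 1.39 for all genes. For *Axin2* (1.07), *Rnf43* (0.881) and *Znrf3* (0.746) the groups were about equally spread. With 5 and 7 livers these ratios are imprecise, and no test was made of them.

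AF livers 2, 6 and 7 were the 3 highest AF livers for 7 of the 10 genes (*Axin2*, *Tbx3*, *Glul*, *Slc1a2*, *Oat*, *Rhbg* and *Lect2*). This order was noticed in the data and is given as a description. It held for 8.98% of all genes tested, and the 10 genes share livers and are not independent of each other. *Lgr5* did not follow it: AF 6 and AF 7 stood at 20% and 18.5% of the PF mean for *Lgr5*, but at 48.3% and 50.8% for *Glul* and at 71.8% and 73.2% for *Oat*. AF 1 was the lowest AF liver for 6 genes. *Cyp2e1*, the ethanol-oxidizing P450 of pericentral hepatocytes, had the same 3 livers on top, with 472, 5800, 1070, 1120, 1090, 6580 and 7240 CPM in AF 1 to 7 and 9180 to 12600 CPM in PF. *Cyp2f2*, a marker of periportal hepatocytes at the other end of the lobule, also had AF 2, 6 and 7 on top (735, 692 and 634 CPM, against 77.5 to 268 CPM in the other AF livers).

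**Figure D3:**
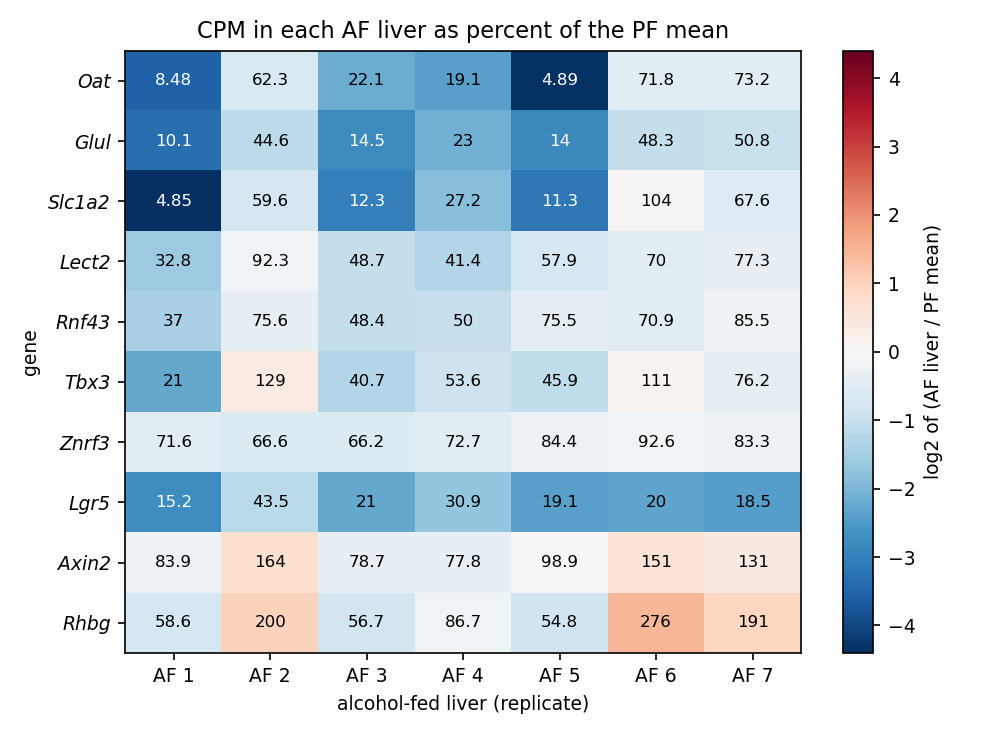
CPM of each gene in each AF liver as a percent of the PF mean, printed in the cells and colored by its log2. *Slc1a2* runs from 4.85% in AF 1 to 104% in AF 6, *Lgr5* stays between 15.2% and 43.5%, and *Rhbg* reaches 276% in AF 6.

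Other measures moved with this order. AF 2, 6 and 7 had the lowest TMM factors of the AF libraries (1.04, 0.880 and 0.960, against 1.15 to 1.36) and the highest summed hepatocyte markers (123000, 166000 and 159000 CPM, against 89000 to 110000). The 10 bile duct markers summed to 241, 158 and 134 CPM in these livers, to 432 to 1230 CPM in the other AF livers and to 126 to 322 CPM in PF. When each library was scaled to its hepatocyte markers, AF 2, 6 and 7 were the 3 highest for 4 of the 10 genes (*Glul*, *Slc1a2*, *Oat* and *Rhbg*), against 1.28% of all genes. On library totals they were so for 6 of the 10, against 2.68% of all genes. The part of cell composition in the differences between livers was not tested.

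The scaling of the libraries decided several calls. On library totals without TMM factors, the median log2 fold change of all genes was 0.40, and on hepatocyte markers 0.64. *Lgr5* (log2 -1.71 and -1.47) and *Glul* (-1.51 and -1.34) passed under both. *Lect2* passed on library totals (-0.42, edgeR adjusted p = 0.0334) and not on hepatocyte markers (-0.20, 0.324). *Rnf43* passed under neither, and *Znrf3* went from -0.03 on library totals to 0.22 on hepatocyte markers. *Axin2* (0.68, edgeR adjusted p = 0.0387) and *Rhbg* (0.84, adjusted p = 0.0400) passed as higher only on hepatocyte markers, and *Oat* (-1.05, 0.0471) passed there as lower. Relative to the median of all genes, *Axin2* was 0.04, *Rhbg* 0.20 and *Znrf3* -0.42 in that scaling, and *Lgr5* was -2.10 to -2.11 in all 5 scalings.

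**Figure D4:**
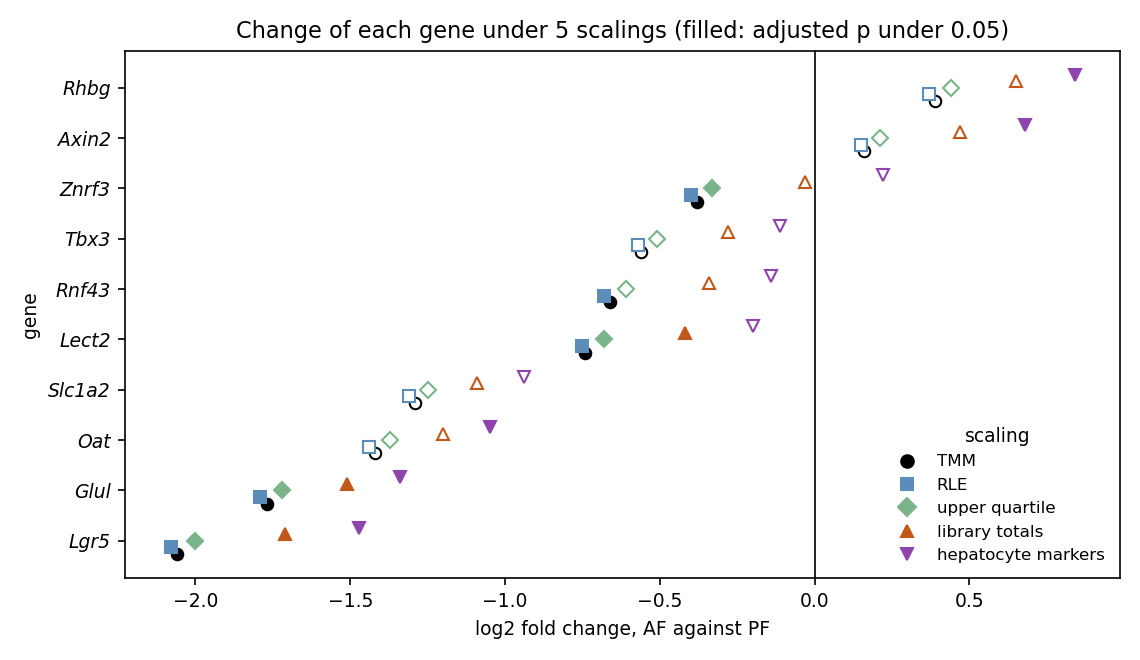
Log2 fold change of each gene in edgeR under TMM, RLE, upper-quartile, library-total and hepatocyte-marker scaling, filled where the adjusted p was under 0.05. All points of a gene shift to the right together under the last 2 scalings, and *Znrf3* crosses 0.

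The other genes of the pathway were read from lists by role. Of 25 genes for ligands and their secretion, 9 were tested, 3 were higher and 1 was lower (median log2 0.39). These are 33.3% and 11.1%, against 22.0% higher and 17.8% lower among all genes tested. *Wnt4* rose from 0.748 ± 0.326 to 2.37 ± 1.46 CPM (log2 1.66, SE 0.459, edgeR adjusted p = 0.0122) and *Wnt5a*, a ligand often linked to β-catenin-independent signaling, from 1.28 ± 0.506 to 4.19 ± 2.05 CPM (1.70, 0.387, 0.00446). *Wls*, the carrier that brings Wnt proteins to the cell surface, rose from 8.34 ± 1.85 to 19.1 ± 7.20 CPM (1.19, 0.272, 0.00444). Among AF livers, *Wls* (29.5 and 8.41 CPM) and *Wnt4* (5.21 and 0.596) were highest in AF 1 and lowest in AF 6. The summed stellate cell and fibrosis genes were so too (701 and 253 CPM, against 128 to 261 in PF). *Wnt5a* was highest in AF 5 (7.95) and lowest in AF 6 (1.56). The part of these cells in the rise was not tested. *Porcn*, the enzyme that acylates Wnt proteins, fell by 0.68 (SE 0.203, edgeR adjusted p = 0.0185), a call that did not hold without PF 2 (0.0640).

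The ligands of the central vein did not pass in edgeR's test with TMM, though each passed under some other setting. *Wnt2* measured 2.17, 4.25, 2.71, 2.71 and 1.72 CPM in PF and 1.53, 2.46, 1.28, 1.00, 1.45, 1.56 and 4.54 CPM in AF livers (log2 -0.46, edgeR adjusted p = 0.318). Without AF 7, its highest AF liver, it passed as lower (-0.81, adjusted p = 0.0311), as it did with the replicate number as a block (-0.81, 0.0197). *Wnt9b* averaged 0.777 ± 0.293 CPM in PF and 1.38 ± 0.508 in AF livers (0.82, adjusted p = 0.0560), and passed as higher without PF 3 (0.0292), without AF 6 (0.0192), in DESeq2 (0.0450) and in voom with sample weights (0.0205). It did so as well with upper-quartile factors (0.0463), on library totals (0.0145), on hepatocyte markers (0.00863), after thinning (0.0469) and with the block (0.0394). *Rspo3*, the R-spondin of the central vein, averaged 6.06 ± 1.62 and 7.89 ± 1.89 CPM (0.38, adjusted p = 0.148). The 9 markers of central vein endothelium, which include these 3 ligands, summed to 34.6 to 50.8 CPM in PF and 44.1 to 72.3 CPM in AF livers.

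Of 17 receptor genes, 12 were tested, 1 was higher and 3 were lower. These are 8.33% and 25.0%, against 22.0% and 17.8% of all genes tested. *Lgr4*, another R-spondin receptor, also fell. It measured 96.5, 104, 80.3, 91.9 and 87.9 CPM in PF and 30.3, 50.6, 38.8, 44.0, 44.3, 45.0 and 42.3 CPM in AF livers, with no overlap (log2 -1.13, SE 0.113, edgeR adjusted p = 2.07e-05). Its AF livers lay close together, unlike those of *Glul* and *Oat*. The co-receptor *Lrp6* (-0.25, edgeR adjusted p = 0.0321) and the Frizzled receptors *Fzd8* (-0.85, 0.0322) and *Fzd1* (0.66, 0.0337) passed narrowly. *Lrp6* turned direction on library totals (0.11, adjusted p = 0.418) and on hepatocyte markers (0.36, 0.0839). Each of the 3 calls was lost on leaving out any of several single libraries. They were PF 2, 4, 5 and AF 1, 3, 4 for *Lrp6* (adjusted p 0.0510 to 0.0793), PF 3, 4, 5 and AF 3, 4 for *Fzd8* (0.0501 to 0.0804), and all 5 PF libraries, AF 3 and AF 5 for *Fzd1* (0.0517 to 0.0785).

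β-Catenin itself, *Ctnnb1*, measured 276, 267, 261, 266 and 264 CPM in PF and 319, 250, 272, 293, 288, 294 and 237 CPM in AF livers. The groups overlapped (log2 0.06, SE 0.0936, edgeR adjusted p = 0.602). mRNA does not report its protein or its place in the cell, which is where the pathway acts. It passed as higher on library totals (0.44, adjusted p = 0.0227) and on hepatocyte markers (0.69, adjusted p = 0.00974), where the medians of all genes were 0.40 and 0.64. Of 11 genes of the destruction complex and of proteins that act on it, the Dishevelled genes included, all were tested and 1 was higher (9.09%, against 22.0% of all genes tested). It was *Fbxw11* (0.24, edgeR adjusted p = 0.0284), a call lost without PF 1, 2 or 5 (0.0640 to 0.0836).

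Of 9 nuclear effectors, 8 were tested and 3 were higher (37.5%, against 22.0% of all genes tested). They were *Tcf7l1*, a TCF factor (log2 0.77, edgeR adjusted p = 0.0141), and the β-catenin partners *Bcl9* (0.61, 0.00914) and *Pygo1* (1.95, 0.00910). *Pygo1* was a low gene, at 0.283 ± 0.144 CPM in PF and 1.09 ± 0.638 in AF livers. *Tcf7l2*, the TCF factor of hepatocytes, averaged 10.5 ± 1.67 and 9.50 ± 2.00 CPM (-0.15, adjusted p = 0.476). Of 18 feedback and secreted inhibitors, 6 were tested and 1 was higher (16.7%, against 22.0% of all genes tested). It was *Dkk3* (1.53, SE 0.373, edgeR adjusted p = 0.00643). *Notum* (0.08, adjusted p = 0.836) and *Nkd1* (-0.15, adjusted p = 0.542), which are targets of the pathway as *Axin2* is, did not pass. On hepatocyte markers *Notum* passed as higher (0.67, adjusted p = 0.0237), as *Axin2* did, near that scaling's median of all genes (0.64).

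**Figure D5:**
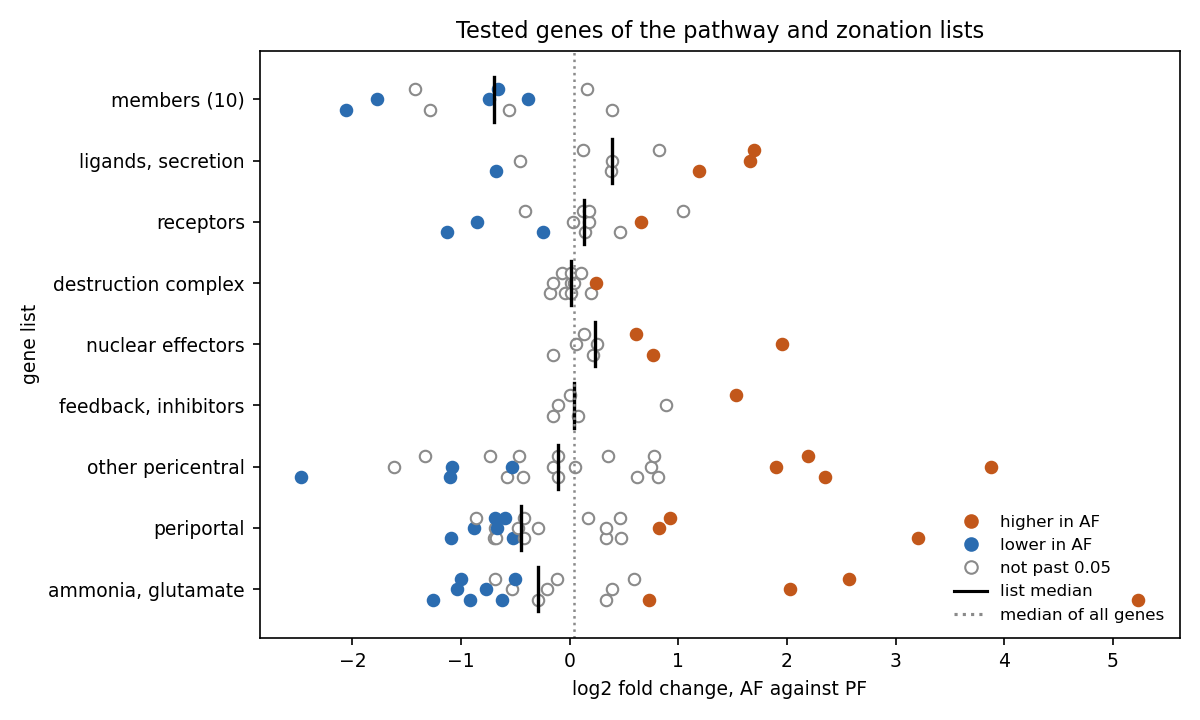
Log2 fold change of AF against PF for each tested gene of the pathway and zonation lists, colored where the edgeR adjusted p was under 0.05, with a bar at each list's median and a dotted line at the median of all genes. The median of the 10 genes (-0.70) lies furthest to the left, and the other pericentral genes spread from -2.47 to 3.88 around a median of -0.11.

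Other genes of pericentral hepatocytes moved both ways. Of 23 tested, 4 were higher and 4 lower, 17.4% each, which is near the share among all genes. *Rgn*, regucalcin, fell from 1820 ± 88.2 to 327 ± 233 CPM (log2 -2.47, SE 0.484, edgeR adjusted p = 0.00186). *Gulo*, the last enzyme of ascorbate synthesis, fell by 1.08 (adjusted p = 0.000705), and *Cyp27a1*, a sterol hydroxylase of bile acid synthesis, by 1.10 (0.00116). The glutathione transferase genes *Gstm3* (3.88, adjusted p = 3.67e-06) and *Gstm1* (1.90, 0.000325) and the neutral amino acid transporter *Slc1a4* (2.35, 0.00150) rose. *Cyp2e1* was at -1.62 (SE 0.611, adjusted p = 0.05), just short of the threshold, and passed without AF 2, AF 6 or AF 7 (adjusted p 0.0424, 0.0286 and 0.0273). It also passed as lower in DESeq2 (0.0187), in voom with sample weights (0.00197), with RLE factors (0.0480), on library totals (0.0361), on hepatocyte markers (0.0291), with a filter at a mean of 10 counts (0.0499), after thinning (0.0497) and with the replicate number as a block (0.00230). *Cyp1a2* averaged 608 ± 88.2 CPM in PF and 1020 ± 592 CPM in AF livers (0.75, adjusted p = 0.112).

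Of 22 periportal genes, all tested, 3 were higher (13.6%, against 22.0% of all genes tested) and 6 lower, with a median of -0.45. *Cps1*, the entry enzyme of the urea cycle, fell from 5730 ± 736 to 3110 ± 937 CPM (log2 -0.88, edgeR adjusted p = 0.00793). *Tat*, which degrades tyrosine, fell by 1.09 (adjusted p = 0.00991) and *Apof* by 0.67 (0.00202). *Apoa4* (3.21, adjusted p = 0.000188), *Hsd17b13* (0.92, 0.00128) and *Aldh1b1* (0.82, 0.0140) rose. *Cyp2f2* averaged 625 ± 155 and 390 ± 286 CPM (-0.68, adjusted p = 0.281), and passed as lower with the replicate number as a block (-1.56, adjusted p = 0.0152). The share of lower genes was 27.3% in the periportal list and 17.4% among the other pericentral genes, against 17.8% of all genes tested. Of 19 hepatocyte markers 6 were lower (31.6%) and 0 higher (*Fabp1* -1.43, *Apoa1* -1.21, median of the list -0.60). *Ahsg* (0.52, adjusted p = 0.0755) and *Rbp4* (0.20, 0.432) had values above 0 and did not pass. Whether the 10 genes differ from other hepatocyte genes was not tested. On library totals *Porcn*, *Fzd8*, *Tat* and *Glud1* no longer passed (adjusted p 0.251, 0.102, 0.0592 and 0.0680), and on hepatocyte markers these 4 did not pass (0.817, 0.361, 0.173 and 0.914), nor did *Cps1* (0.191) and *Apof* (0.540). When every gene with a count was tested, *Porcn* (0.0530), *Lrp6* (0.106) and *Fbxw11* (0.0642) did not pass, and *Lrp6* did not with upper-quartile factors (0.0609). On library totals and hepatocyte markers *Rspo3* passed as higher (log2 0.71 and 0.93, adjusted p 0.0121 and 0.00860). *Cyp1a2* did so too (1.01 and 1.23, adjusted p 0.00883 and 0.00187). The medians of all genes in these scalings were 0.40 and 0.64.

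Around glutamate, glutamine and ammonia, 19 of 22 listed genes were tested, with 4 higher and 7 lower (median -0.29). These are 21.1% and 36.8%, against 22.0% higher and 17.8% lower among all genes tested. The amino acid transporters *Slc38a4* (log2 -1.04, edgeR adjusted p = 0.000251) and *Slc38a3* (-0.92, 0.00425) fell, as did glutamate dehydrogenase *Glud1* (-0.62, 0.00288), together with *Glul*. The proline synthesis genes *Aldh18a1* (2.03, adjusted p = 0.000187) and *Pycr1* (2.57, 0.000813) rose from low levels, the first from 2.90 ± 0.576 to 11.9 ± 4.38 CPM. *Gls2*, the liver glutaminase of periportal cells, averaged 321 ± 37.8 and 263 ± 42.6 CPM (-0.29, adjusted p = 0.0997), and passed without AF 6 (-0.34, 0.0448) and with the replicate number as a block (-0.39, 0.0130).

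*Slc1a1*, a glutamate transporter of the same family as *Slc1a2*, rose. It was at or under the floor that 3 counts set in every PF library, where it averaged 0.0422 CPM, and measured 0.346 to 6.47 CPM in AF livers (edgeR adjusted p = 0.00178).

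The genes whose pattern over the 12 livers was most like that of *Glul* were *Cmah* (root mean square difference of centered log2 CPM 0.193), *Wfdc21* (0.291) and *Cyp2j5* (0.309). *Cmah* averaged 288 CPM in PF and 80.5 CPM in AF livers, with AF livers from 28.1 to 145. *Axin2* was most like *Fbxo17* (0.259), *Ctf1* (0.274) and *Tmem125* (0.279), 3 genes with log2 fold changes between -0.18 and 0.08. *Lgr5* was most like *Gm15318* (0.326), *C630043F03Rik* (0.362) and *Hsd3b2* (0.372), and *Hsd3b2* averaged 66.9 CPM in PF and 15.5 CPM in AF livers.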

How the data were processed

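Whole liver mRNA of 5 PF and 7 AF mice was sequenced by the authors after oligo(dT) enrichment with a stranded kit, and they deposited unnormalized read counts by Ensembl gene ID for all 12 libraries. The submitters' processing notes name FastQC 0.10.1, TopHat2 2.0.13, HTSeq 0.10.0 and GRCm38. The annotation and strand setting are not given in the sources used here, and the study's own Cuffdiff2 test was not repeated. Reads carry no molecular identifiers. The SDs and the standard errors from edgeR take in the spread between mice. The lowest ratio of chi-square to degrees of freedom among 31 pairs of libraries within groups was 21.1, so no library repeated another of its group.

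Calculations used R 4.3.3, edgeR 4.0.16, limma 3.58.1, DESeq2 1.42.0 and GENCODE M21, which named 54165 of the IDs. Counts were TMM-scaled, filtered with filterByExpr and compared by the quasi-likelihood test of edgeR, with Benjamini-Hochberg adjustment over 14168 genes and a threshold of 0.05. CPM is given as mean ± SD over mice. Exact permutation tests ran on log2 CPM (prior count 2) over 792 splits, and their p-values are not adjusted. The 10 genes and all lists were chosen with earlier results of these data known. Genes named besides the 10 came from a fixed rule: always *Ctnnb1*, *Cyp2e1*, *Cyp1a2*, *Cyp2f2*, *Wnt2*, *Wnt9b*, *Rspo3*, *Lgr4* and *Gls2*, then from each list all tested genes if there were 8 or fewer, and otherwise up to 3 per direction with the lowest p, plus 3 nearest patterns each for *Glul*, *Axin2* and *Lgr5*. Not all of them are printed. The steps were tested on simulated data for AF against PF with 14168 genes, where edgeR recovered 74 of 100 genes changed by a log2 fold of 1 and 91 of 100 changed by 2, with 8 false calls. The simulation gave both groups the same spread per gene. It changed only these genes, equally up and down, and drew them from the better counted ones. In the data 39.8% of genes were called, and 26.9% had an SD at least 2-fold larger in AF. These rates therefore need not hold for the calls above.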

Additional observations from a re-analysis of the deposited data

Results flagged for a closer look

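Of 38 groups of values tested for a library far from the rest, 2 held such a library. Chance gives about 1 in 20 groups, here 1.9. *Cyp2e1* measured 12600 CPM in PF replicate 2, while the other PF livers lay between 9180 and 10100 CPM. *Wnt2* measured 4.54 CPM in AF replicate 7, while the other AF livers lay between 1.00 and 2.46 CPM. Neither gene is among the 10.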

How the results depend on the processing

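*Lgr5* and *Glul* were lower in AF past the threshold under all 22 alternatives across genes, *Lect2* under 21, *Znrf3* under 13, *Rnf43* under 11, *Oat* under 6 and *Slc1a2* under 3. On library totals, 3 of the 10 genes were lower, and the 14168 genes tested gave 6458 higher and 938 lower. Of the genes called, 87.3% were higher, against 55.3% with TMM. On that scale the pathway lists gave 58 and 10 and the cell type lists 47 higher. In these counts, the pathway lists join the Wnt lists by role with the other pericentral, periportal, glutamate and proliferation lists. The cell type lists are the marker lists of cell types, hepatocytes included. On hepatocyte markers, 2 of the 10 genes were higher and 3 lower. All genes gave 8297 and 524 (94.1% of the genes called were higher), the pathway lists 70 and 8, and the cell type lists 50 higher. With TMM the counts were 3116 higher and 2519 lower for all genes, 31 and 21 for the pathway lists, and 29 and 8 for the cell type lists. Voom with sample weights called 35 pathway and 20 cell type genes lower, and DESeq2 13 cell type genes lower.

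Replicate numbers did not pair the mice (correlations of deviations -0.0749 to 0.117, with only pair 3 correlating best with its own number), and a replicate block leaves AF 6 and AF 7 without a partner. With the block, 6 of the 10 genes, 37 pathway and 16 cell type genes were lower, and 2940 of all genes were lower and 3395 higher, against 2519 and 3116 without it. *Slc1a2* (-2.62) and *Oat* (-2.65) passed and *Rnf43* (-0.81, adjusted p = 0.0520) did not. *Axin2* went to -0.0035, *Rhbg* to -0.30 and *Notum* to -0.05.

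Leaving out 1 library, lower calls among the 10 genes ran from 3 to 7, pathway calls from 21 to 34 higher and from 14 to 30 lower, cell type calls from 27 to 31 and from 6 to 13, and all calls from 2519 to 3574 and from 2119 to 2923. Other reversed directions were *Rhbg* under voom (-0.03), and on library totals and hepatocyte markers *Gls2* (0.07 and 0.28), *Lrp6* (0.11 and 0.36), *Tcf7l2* (0.21 and 0.46) and *Nkd1* (0.22 and 0.45). On hepatocyte markers alone these were *Znrf3* (0.22) and *Wnt2* (0.06). *Notum* ran from -0.10 to 0.24 over the libraries left out, and was -0.06, -0.0015, -0.02 and -0.10 without PF 3, PF 4, AF 2 and AF 7. The permutation difference of *Rnf43* ran from -0.86 to -0.51, and in the permutation test *Rhbg* was -0.02, -0.10 and -0.01 without AF 2, AF 6 and AF 7. The causes were not tested. The thinly counted genes were *Rhbg*, with 33 to 131 reads per library, *Axin2*, with 69 to 165, and *Lgr5*, with 55 to 118 in AF libraries.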

Other observations

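The median log2 fold change of 14 proliferation genes was 1.75, against 0.04 for all genes. Of the 14, 0 were lower in AF and 11 were higher (78.6%, against 22.0% of all genes tested). They include *Ccnd1*, the G1 cyclin that is a textbook target of β-catenin, which averaged 28.9 ± 9.49 CPM in PF (SD, n = 5) and 114 ± 53.8 CPM in AF livers (SD, n = 7), log2 1.98, SE 0.38, edgeR adjusted p = 0.00169. *Myc*, another such target in other tissues, rose from 3.19 ± 1.39 to 14.3 ± 10.2 CPM (2.16, 0.415, 0.00169), and *Mcm2*, part of the replicative helicase, from 4.24 ± 1.98 to 9.63 ± 2.43 CPM (1.19, 0.271, 0.00446). The AF mean of *Myc* was raised by AF 1 at 37.3 CPM. The other AF livers measured 9.54 to 11.7 CPM and PF livers 1.72 to 5.11 CPM. Summed over the list, AF 6 (85.3 CPM) and AF 7 (172) were the lowest AF livers, and AF 3 (407) was the highest.

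Marker genes of cells other than hepatocytes were higher in AF livers in several lists. Among all genes tested, 22.0% were higher and 17.8% lower. Which cells the mRNA came from was not measured. Of 12 stellate cell and fibrosis genes 9 were higher, among them *Col1a1* (log2 3.33, edgeR adjusted p = 0.00163) and *Pdgfrb* (1.49, 0.00105). Of 10 Kupffer cell genes 8 were higher, such as *C1qa* (1.11, 0.000155), and of 7 tested bile duct genes 4 were, among them *Epcam* (2.76, 0.0126) and *Krt19* (2.62, 0.0112). In the list of central vein endothelium 3 of 9 were higher, *Thbd* (0.84, 0.00507), *Fabp4* (1.24, 0.00165) and *Dkk3*, and 1 was lower. Sinusoidal endothelium had 1 higher of 10. Recruited macrophages had 4 higher of 8, neutrophils 0 of 8 and T and B cells 0 of 10 with 1 lower. The neutrophil genes summed to 1030 CPM in PF 1, to 60.9 to 233 CPM in the other PF livers and to 47.1 to 208 CPM in AF.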
